A study of Mus musculus with 12 samples.

Results

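The 10 genes described here are the receptors Egfr, Erbb2 and Erbb3 of the epidermal growth factor (EGF) receptor family, the EGFR ligands Areg, Ereg, Hbegf, Tgfa, Btc and Epgn, and the neuregulin Nrg1. They were chosen by name, and all 10 were found among the 24674 genes of the expression table. RNA was sequenced from mouse prostate organoids grown from basal cells, in 12 samples that form 4 groups of 3. All samples were labelled Wildtype and C57BL/6, so the labels set the groups apart only by treatment, which was vehicle, UK5099, butyrate, or UK5099 and butyrate together (the combination). UK5099 is an inhibitor of pyruvate import by mitochondria, and butyrate is a short-chain fatty acid that inhibits histone deacetylases. The labels used here give no dose for either compound, no duration of treatment, and no statement that replicates came from separate cultures or animals, so p-values measure only the spread between these samples, which may be technical. The organoid protocol named in the labels supplies EGF in the medium, so every group, vehicle included, was grown with an EGFR ligand added from outside.

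The ligands are made as membrane-bound precursors, and proteases of the ADAM family cut them free. A ligand joins receptors into pairs, the paired kinases phosphorylate each other, and adaptors then switch on the RAS-ERK and PI3K-AKT cascades. ERBB2 has no known ligand of its own and acts as a partner, whereas ERBB3 binds neuregulins and has a weak kinase. In stratified and glandular epithelia these ligands act on the cell that makes them and on its neighbours.

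The pattern across the family was uneven. Epgn and Ereg were higher than vehicle in all treated groups, and Areg was higher to a smaller degree. Nrg1 was far higher in both groups that received UK5099 and just above vehicle with butyrate alone. Btc was lower in both groups that received butyrate. Deposited TPM of the 3 receptors was lower in both butyrate groups, although for Egfr with the combination the sign turned under other scalings. TPM is a gene's share of all transcripts, scaled so that each sample sums to 1000000, and the deposited values use the length of the whole gene, introns included. Comparisons of groups used limma on log2(TPM + 1) over all 24674 genes. A coefficient is the difference between 2 groups on that scale, a gene passed the test at an adjusted p under 0.01, and it was called when its coefficient was also beyond 1 in either direction. On this scale the change of a gene of few TPM is understated, most of all under 1 TPM. Btc, at 2.11 TPM with vehicle, was at 0.365 of vehicle with the combination but had a coefficient of -0.81. Among genes averaging 1 TPM or more, the median gene had a coefficient of -0.12 (UK5099), -0.30 (butyrate) and -0.41 (combination), and these medians became 0.01, 0.00 and 0.00 after median-of-ratios scaling, which centres each sample on the typical gene. Coefficients on both scales are therefore given where they part. In bulk RNA, fewer cells of a type and less RNA per cell cannot be told apart.

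**Figure D1:**
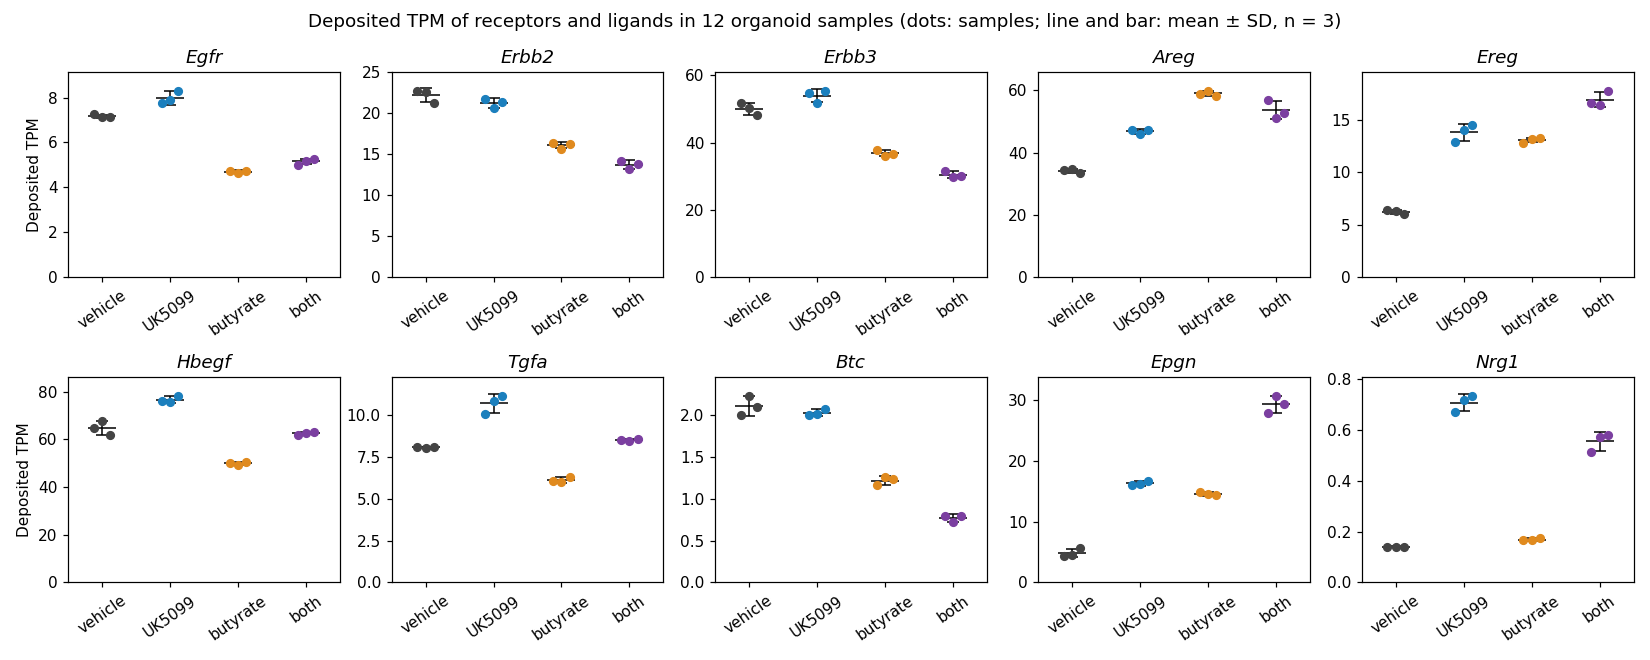
Deposited TPM of the 10 genes in each of the 12 samples, with 1 panel per gene, a linear axis from 0, dots for samples and lines with bars for the mean ± SD (n = 3). Epgn rose from a mean of 4.87 TPM with vehicle to 29.3 TPM with the combination, while Btc lay at 2.11 TPM with vehicle and 0.769 TPM with the combination.

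UK5099 gave 2 called genes of the 10, Ereg and Epgn, beside 1.84% of all genes called in that comparison. Butyrate gave 1, Epgn, beside 3.54% of all genes, and the combination gave 2, Ereg and Epgn, beside 6.42% of all genes. These 3 comparisons share the vehicle samples. With no limit on the coefficient, 7 of the 10 passed with UK5099 beside 33.0% of all genes, 9 with butyrate beside 45.6%, and 8 with the combination beside 51.0%. When limma voom was run on fragments recovered from the TPM values, 3 genes were called with UK5099 (Ereg, Epgn and Nrg1), 3 with butyrate (Areg, Ereg and Epgn) and 4 with the combination (Areg, Ereg, Epgn and Nrg1), beside 5.80%, 10.5% and 14.1% of all genes.

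Basal and luminal markers moved with the treatments. The 3 basal markers Krt5, Krt14 and Trp63 were detected in every sample and summed to 3507 to 3547 TPM with vehicle, 9746 to 10238 TPM with UK5099, 4486 to 4676 TPM with butyrate and 8067 to 8320 TPM with the combination. With butyrate they did not move together in deposited TPM. Mean Krt5 went from 1848 TPM with vehicle to 3152 TPM and Trp63 from 5.23 to 8.46 TPM, while Krt14 went from 1676 down to 1391 TPM. After median-of-ratios scaling Krt14 too lay above vehicle with butyrate. The 4 luminal markers Krt8, Krt18, Krt19 and Prom1 summed to 4139 to 4309 TPM with vehicle, 2330 to 2489 TPM with UK5099, 2243 to 2283 TPM with butyrate and 1390 to 1577 TPM with the combination. Their part in the results on receptors and ligands was not tested. Of 4 immune markers 3 were in the table, with Ptprc and Csf1r near 0 while Cd68, a lysosomal glycoprotein, averaged 24.2, 30.2, 67.4 and 91.7 TPM in vehicle, UK5099, butyrate and the combination. The 4 endothelial markers summed to group means of 0.776 to 1.80 TPM, mostly Esam. The 5 stromal markers summed to group means of at most 2.63 TPM outside the butyrate group, where Dcn alone averaged 9.51 TPM.

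The genes of 4 ligands are neighbours on chromosome 5, where Epgn, Ereg, Areg and Btc lie within 375531 bp together with the long non-coding RNA genes Gm19610 and Gm19619. In the coordinates of the table, Epgn (ENSMUSG00000035020) runs from 91175323 to 91183074, Ereg (ENSMUSG00000029377) from 91222481 to 91241505 and Areg (ENSMUSG00000029378) from 91287458 to 91296291, all on the plus strand. Btc (ENSMUSG00000082361) runs from 91505120 to 91550853 on the minus strand. The submitters' processing notes name GRCm39 for the table. The promoter windows of 3 of these genes are shown because the genes share a neighbourhood while Epgn and Areg were higher and Btc lower in the butyrate groups. They come from RefSeq on another build, GRCm38.p6, and run from 250 bases before the start to 50 after it, 5′ to 3′ on the gene's own strand, at chr5:91027267-91027566 (plus) for Epgn, chr5:91139349-91139648 (plus) for Areg and chr5:91402945-91403244 (minus) for Btc. Capitals mark matches, on either strand, to the TATA box letters TATAAA, the AP-1 letters TGANTCA, the cAMP response element letters TGACGTCA and the GC box letters GGGCGG.
Epgn: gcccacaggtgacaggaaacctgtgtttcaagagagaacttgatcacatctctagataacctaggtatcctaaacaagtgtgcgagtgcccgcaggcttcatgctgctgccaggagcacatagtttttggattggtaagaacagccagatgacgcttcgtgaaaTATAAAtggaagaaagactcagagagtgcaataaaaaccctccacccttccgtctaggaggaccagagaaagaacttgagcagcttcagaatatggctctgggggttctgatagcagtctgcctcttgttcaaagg
Areg: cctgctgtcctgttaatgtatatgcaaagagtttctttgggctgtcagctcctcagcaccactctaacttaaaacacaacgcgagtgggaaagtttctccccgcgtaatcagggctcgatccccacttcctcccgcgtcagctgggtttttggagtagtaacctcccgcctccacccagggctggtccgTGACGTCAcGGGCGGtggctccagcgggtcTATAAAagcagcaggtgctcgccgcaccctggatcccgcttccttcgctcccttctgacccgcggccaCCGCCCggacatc
Btc: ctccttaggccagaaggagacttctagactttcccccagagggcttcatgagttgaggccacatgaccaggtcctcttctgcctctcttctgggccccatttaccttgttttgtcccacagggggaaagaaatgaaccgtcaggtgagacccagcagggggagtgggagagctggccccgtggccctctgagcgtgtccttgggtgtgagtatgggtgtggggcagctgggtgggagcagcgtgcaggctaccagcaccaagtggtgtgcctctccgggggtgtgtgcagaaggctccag
The Epgn window held TATAAA 86 bases before the start and none of the other letters. The Areg window held TATAAA 31 bases before the start, TGACGTCA 61 before it, and GGGCGG 52 before it and, on the opposite strand, 37 after it. None of the searched letters were in the Btc window. Over all 32851 promoter windows, 13.6% held TATAAA, 7.81% held TGANTCA, 1.79% held TGACGTCA and 35.7% held GGGCGG. The Areg window held 21 CG dinucleotides, against 5 each in the Epgn and Btc windows and a median of 7 over all windows. Of the 10 genes 6 matched a window, and Ereg, Erbb3, Hbegf and Nrg1 did not.

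None of the 3 receptors were called in any comparison. Egfr (ENSMUSG00000020122, chromosome 11, 16702203 to 16868158, plus strand), the receptor of all 6 EGFR ligands, was at 7.25, 7.11 and 7.13 TPM with vehicle, 7.75, 7.87 and 8.31 TPM with UK5099, 4.72, 4.64 and 4.74 TPM with butyrate, and 5.01, 5.20 and 5.26 TPM with the combination. No 2 groups overlapped, with UK5099 highest and butyrate lowest. Its coefficient against vehicle was 0.14 ± 0.02 (SE) with UK5099 (limma adjusted p = 0.00128), -0.52 with butyrate (adjusted p = 6.87e-08) and -0.41 with the combination (adjusted p = 2.25e-07). After median-of-ratios scaling the UK5099 coefficient was 0.27 (adjusted p = 2.72e-06), the butyrate coefficient was -0.21, and that of the combination turned to 0.03. The lncRNA gene Egfros lies inside Egfr on the opposite strand over 15272 bp, with a mean of 0.773 TPM. The study's methods name a stranded library kit and RSEM with default settings, whereas the labels and processing notes name another kit and Partek. Whether the deposited counting used strand was not settled here, so fragments of this pair may not be told apart.

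Erbb2 (ENSMUSG00000062312, chromosome 11, 98303296 to 98328542, plus strand) was at 22.8, 22.6 and 21.2 TPM with vehicle, 21.8, 20.6 and 21.3 TPM with UK5099, 16.4, 15.7 and 16.3 TPM with butyrate, and 14.2, 13.1 and 13.8 TPM with the combination. Vehicle and UK5099 overlapped, and both butyrate groups lay below them without overlapping each other. Erbb2 shares 9 bp with the opposite-strand gene Mien1. The UK5099 coefficient was -0.06 ± 0.04 (limma adjusted p = 0.238), and it was 0.09 after median-of-ratios scaling. Erbb2 fell by 0.44 on the log2 scale with butyrate (adjusted p = 3.5e-06) and by 0.66 with the combination (adjusted p = 1.29e-07), while after median-of-ratios scaling these coefficients were -0.10 (adjusted p = 0.0413) and -0.17. Erbb3 (ENSMUSG00000018166, chromosome 10, 128403392 to 128425521, minus strand), which pairs with ERBB2 to receive neuregulin, was at 51.8, 50.2 and 48.2 TPM with vehicle, 54.6, 51.8 and 55.5 TPM with UK5099, 37.9, 36.2 and 36.7 TPM with butyrate, and 31.6, 29.8 and 30.1 TPM with the combination. The 2 butyrate groups lay below the others and apart from each other. The coefficient of UK5099 alone was 0.11 (adjusted p = 0.0424), and added to butyrate it was -0.27 (adjusted p = 0.00034), so the second passed the test and the first did not. After median-of-ratios scaling it was the other way round, with 0.26 for UK5099 alone (adjusted p = 0.000285) and -0.12 for UK5099 added to butyrate (adjusted p = 0.0263). The interaction, which is the difference between these 2 effects of UK5099, was -0.37 ± 0.05 (adjusted p = 0.00076), and its sign and its passing of the test held after median-of-ratios scaling (-0.38). With butyrate alone the Erbb3 coefficient was -0.43 on the deposited scale and -0.08 (adjusted p = 0.0992) after median-of-ratios scaling.

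Epgn encodes epigen, an EGFR ligand of epithelia. It was at 4.40, 4.56 and 5.66 TPM with vehicle, 16.0, 16.1 and 16.7 TPM with UK5099, 14.9, 14.6 and 14.3 TPM with butyrate, and 27.9, 30.7 and 29.4 TPM with the combination. All treated samples lay above all vehicle samples, each single treatment formed its own narrow range, and the combination lay above both. The group means were 3.34, 2.99 and 6.02 times the vehicle mean of 4.87 ± 0.683 TPM (SD, n = 3). The coefficients were 1.56 ± 0.07 with UK5099 (limma adjusted p = 1.69e-07), 1.41 with butyrate (adjusted p = 1.06e-07) and 2.37 with the combination (adjusted p = 2.13e-09), and all 3 were called. UK5099 added 0.96 on top of butyrate and butyrate added 0.81 on top of UK5099. On the log2 scale each effect was therefore smaller in the presence of the other, by 0.60 ± 0.10 (interaction -0.60, adjusted p = 0.00223). In TPM it was the other way round. The group means were 4.87 (vehicle), 16.3 (UK5099), 14.6 (butyrate) and 29.3 (combination), so each compound added more TPM in the presence of the other. On recovered fragments, which averaged 273 per vehicle sample and 2378 per combination sample, the 3 coefficients were 1.88, 1.89 and 3.04. The difference between the single treatments did not pass the test, with butyrate against UK5099 at -0.15 (adjusted p = 0.12), a sign that turned on recovered fragments (0.01). This direct comparison was added after the data had been seen.

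Ereg encodes epiregulin, which binds EGFR and ERBB4. It was at 6.39, 6.29 and 5.97 TPM with vehicle, 12.9, 14.02 and 14.5 TPM with UK5099, 12.8, 13.1 and 13.2 TPM with butyrate, and 16.6, 16.4 and 17.8 TPM with the combination. UK5099 and butyrate overlapped, and the combination lay above both. The coefficient was 1.03 ± 0.04 with UK5099 (limma adjusted p = 1.09e-07), 0.96 with butyrate (adjusted p = 5.57e-08) and 1.31 with the combination (adjusted p = 4.18e-09), so butyrate fell just under the limit of 1 that UK5099 just exceeded. After median-of-ratios scaling the 3 coefficients were 1.16, 1.27 and 1.77, all called. Ereg had the most negative interaction of the 10 genes, -0.69 ± 0.06 (adjusted p = 5.5e-05). Ereg overlaps the opposite-strand gene Gm19610 over 152 bp. None of its 3 values under 1000 recovered fragments were whole numbers.

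Areg encodes amphiregulin. It was at 34.4, 34.8 and 33.6 TPM with vehicle, 47.3, 45.8 and 47.3 TPM with UK5099, 58.9, 59.9 and 58.2 TPM with butyrate, and 56.9, 51.3 and 52.7 TPM with the combination. No 2 groups overlapped, and the combination lay between the single treatments. The group means were 1.37, 1.72 and 1.57 times vehicle. Areg rose with UK5099 (coefficient 0.44 ± 0.03, limma adjusted p = 6.17e-06), with butyrate (0.77, adjusted p = 5.45e-08) and with the combination (0.63, adjusted p = 1.25e-07), in each case under the limit for a call, whereas after median-of-ratios scaling the butyrate and combination coefficients were 1.12 and 1.13 and were called. The interaction was -0.58 ± 0.05 (adjusted p = 4.08e-05). Added to butyrate, UK5099 moved Areg by -0.14 (adjusted p = 0.0116), or by 0.01 after median-of-ratios scaling.

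Btc encodes betacellulin, a ligand of EGFR and ERBB4. It was at 2.00, 2.23 and 2.09 TPM with vehicle, 2.00, 2.01 and 2.07 TPM with UK5099, 1.16, 1.26 and 1.23 TPM with butyrate, and 0.791, 0.718 and 0.798 TPM with the combination. Vehicle and UK5099 overlapped, and the butyrate groups lay below them in separate ranges. Btc was the ligand that fell furthest, to 0.578 of vehicle with butyrate and 0.365 of vehicle with the combination. The coefficients were -0.49 ± 0.03 (limma adjusted p = 4.3e-07) and -0.81 (adjusted p = 8.12e-09), and on recovered fragments, 369 on average per combination sample, they were -0.48 and -0.99. After median-of-ratios scaling they were smaller, -0.26 (adjusted p = 4.99e-05) and -0.53 (adjusted p = 2.42e-07). The UK5099 coefficient was -0.04 (adjusted p = 0.405), with the opposite sign after median-of-ratios scaling (0.06). In the presence of butyrate UK5099 lowered Btc by 0.33 (adjusted p = 2.94e-05), and the interaction was -0.29 ± 0.04 (adjusted p = 0.00105).

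Hbegf and Tgfa moved in opposite directions with the 2 compounds on the deposited scale. Hbegf (ENSMUSG00000024486, chromosome 18, 36637980 to 36648858, minus strand) encodes heparin-binding EGF-like growth factor and was at 65.0, 67.6 and 61.9 TPM with vehicle, 76.0, 75.8 and 78.3 TPM with UK5099, 50.2, 49.1 and 50.5 TPM with butyrate, and 62.1, 62.8 and 63.3 TPM with the combination. UK5099 lay above and butyrate below all other samples, and the combination fell within the vehicle range. Hbegf rose by 0.24 with UK5099 (limma adjusted p = 0.000113) and had coefficients of -0.37 with butyrate (adjusted p = 2.56e-06) and -0.05 with the combination (adjusted p = 0.211). After median-of-ratios scaling these became 0.39, -0.02 (adjusted p = 0.626) and 0.45, so the rise with UK5099 held on both scales while the fall with butyrate did not. Tgfa (ENSMUSG00000029999, chromosome 6, 86172205 to 86252701, plus strand), which encodes transforming growth factor alpha, was at 8.10, 8.02 and 8.09 TPM with vehicle, 10.1, 10.9 and 11.1 TPM with UK5099, 6.08, 5.99 and 6.31 TPM with butyrate, and 8.53, 8.47 and 8.56 TPM with the combination. No groups overlapped. Its coefficients were 0.37 with UK5099 (adjusted p = 9.28e-06), -0.35 with butyrate (adjusted p = 5.98e-06) and 0.07 with the combination (adjusted p = 0.0768), and after median-of-ratios scaling 0.50, -0.03 (adjusted p = 0.36) and 0.52. Hbegf and Tgfa did not pass the test of the interaction, with coefficients of 0.08 (adjusted p = 0.21) and 0.05 (adjusted p = 0.509).

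Nrg1 (ENSMUSG00000062991, chromosome 8, 32304579 to 33374825, minus strand) encodes neuregulin 1, a ligand of ERBB3 and ERBB4. It was at 0.141, 0.139 and 0.141 TPM with vehicle, 0.670, 0.715 and 0.732 TPM with UK5099, 0.166, 0.167 and 0.173 TPM with butyrate, and 0.512, 0.572 and 0.577 TPM with the combination. Both UK5099 groups lay far above both others, and the butyrate samples lay just above vehicle. The low TPM reflects the listed length, 1070247 bp against 10351 bp of exon: the vehicle samples held 1070 recovered fragments on average and the UK5099 samples 5888. Group means were 5.04, 1.20 and 3.95 times vehicle. On log2(TPM + 1) the coefficients were 0.58 ± 0.02 with UK5099 (limma adjusted p = 2.22e-08), 0.04 with butyrate (adjusted p = 0.15) and 0.45 with the combination (adjusted p = 1.99e-08). The butyrate coefficient passed after median-of-ratios scaling (0.08, adjusted p = 0.00403). On recovered fragments, where the pseudocount does not weigh on a long gene, they were 2.48 ± 0.05 (adjusted p = 1.28e-21), 0.58 (adjusted p = 5.87e-09) and 2.44 (adjusted p = 1.97e-21), and the first and the last were called. Nrg1 differed between the single treatments, with butyrate against UK5099 at -0.55 (adjusted p = 2.56e-08) and, on recovered fragments, -1.90 (adjusted p = 6.32e-19). Its interaction was -0.17 ± 0.03 (adjusted p = 0.00158) and did not pass after median-of-ratios scaling (adjusted p = 0.0536), although on recovered fragments it was -0.62.

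**Figure D2:**
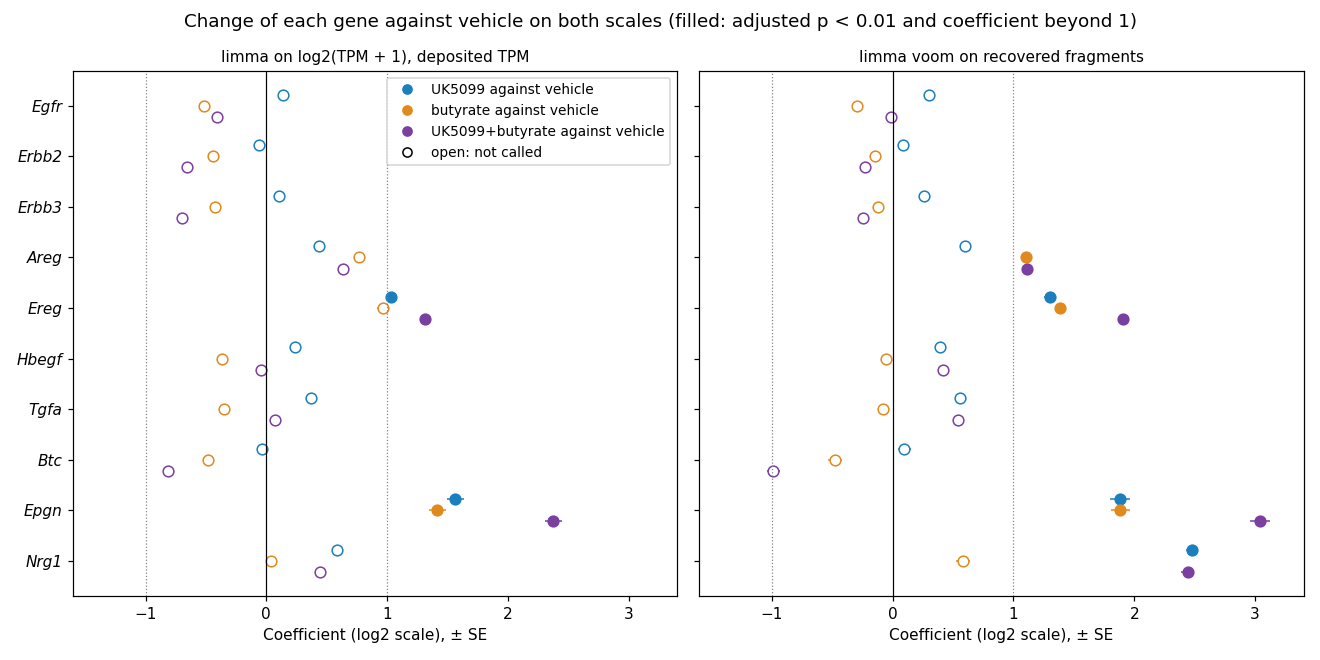
Coefficients ± SE of the 10 genes for the 3 comparisons against vehicle, on log2(TPM + 1) in the left panel and on recovered fragments by limma voom in the right panel, with filled points for called genes and dotted lines at a coefficient of 1 in either direction. Nrg1 with UK5099 moved from 0.58 on the left to 2.48 on the right, and the combination coefficient of Hbegf turned from -0.05 to 0.42.

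Added to butyrate, UK5099 gave 0 called genes of the 10 by limma (0.908% of all genes), although 10 had an unadjusted p under 0.05 (42.6% of all genes did), and limma voom called 2 (Epgn and Nrg1, beside 3.30% of all genes). Butyrate added to UK5099 likewise gave 0 (1.97% of all genes), with 10 at an unadjusted p under 0.05 (53.9% of all genes) and 2 called by limma voom, Epgn higher (beside 5.64% of all genes called higher) and Btc lower (beside 2.36% called lower). For the interaction 0 were called (1.01% of all genes) by limma and 0 by limma voom (2.70%), and 7 had an unadjusted p under 0.05 (31.5% of all genes). Without the limit on the coefficient, 6 of the 10 interactions passed, beside 13.4% of all genes, and all 6 were negative (Erbb3, Areg, Ereg, Btc, Epgn and Nrg1), beside 6.38% of all genes with a negative interaction that passed. Butyrate against UK5099 gave 0 by limma (1.86% of all genes), with 8 at an unadjusted p under 0.05 (50.6% of all genes) and 1 called by limma voom (Nrg1, beside 7.21%).

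Levels can be compared between genes only per length of transcript, so TPM was recomputed with exonic length. This length joins all annotated exons of a gene, and every fragment is taken as exonic. Whether fragments from introns were counted was not settled. That limit bears most on the place of Nrg1, with 10351 bp of exon in a span of 1070247 bp. On this scale Areg was the most abundant of the 10 genes in every group, averaging 140 ± 2.08 TPM (SD, n = 3) in vehicle, 195 in UK5099, 262 in butyrate and 240 in the combination. With vehicle it was followed by Erbb3 (104), Hbegf (82.2), Erbb2 (60.6) and Egfr (59.1), whose samples overlapped, then Tgfa (56.4), Ereg (16.1), Btc (12.02) and Epgn (11.8), whose samples overlapped, and Nrg1 (8.17). With UK5099, Nrg1 (41.7) and Epgn (39.95) overlapped and both stood above Ereg (36.4) and Btc (11.7). With the combination Epgn was at 77.4, below Areg and Hbegf (86.8) and above Erbb3 (69.0), and Btc was last at 4.78.

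**Figure D3:**
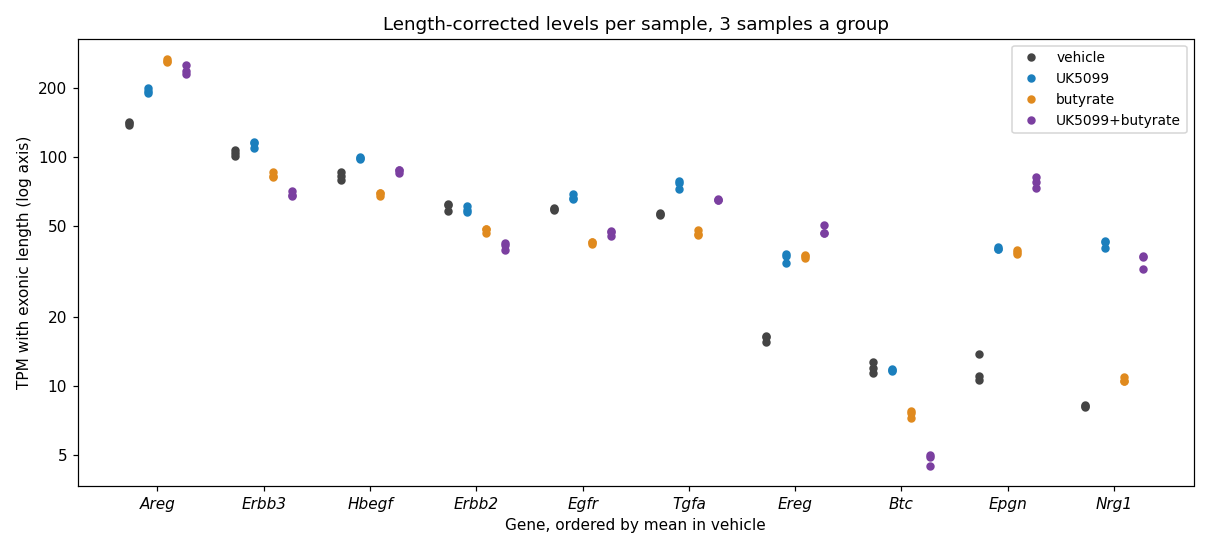
TPM recomputed with exonic length for the 10 genes in each group, with a dot per sample, 3 samples a group, colours for groups and a log axis. Epgn averaged 11.8 with vehicle and 77.4 with the combination, and Areg was highest in each group.

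Summed over the 6 EGFR ligands, exonic TPM was 319 ± 4.61 in vehicle samples and 457 ± 4.94 (UK5099), 460 ± 2.73 (butyrate) and 522 ± 6.19 (combination, all ± SD, n = 3), so all treated groups lay above vehicle and the single treatments overlapped. The makeup of this sum differed between the single treatments, since Areg made up 42.6% with UK5099 and 57.0% with butyrate, and Hbegf 21.6% and 14.9%. Epgn made up 3.70% of the sum with vehicle and 14.8% with the combination. Btc went from 3.77% to 0.917%.

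The genes with the pattern most like Epgn over the 12 samples, by Pearson's r of log2(TPM + 1) among 10113 protein-coding genes averaging 1 TPM or more, were Dmkn (dermokine, a secreted protein of differentiating epidermis) at 0.994, Bcl11b (a zinc finger transcription factor) at 0.992 and Hcfc1r1 at 0.991. For Ereg they were Glo1 (glyoxalase, which detoxifies methylglyoxal) at 0.995, Aqp3 (a water and glycerol channel of basal epithelium) at 0.994 and Ckmt1 (a mitochondrial creatine kinase) at 0.994. The points share libraries and groups, and these correlations are descriptions of these samples.

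The rest of the pathway was read from 5 lists of 66 genes, all in the table. With UK5099 2 were called, both higher (0.928% of all genes were called higher and 0.912% lower). Butyrate gave 9, with 2 higher and 7 lower (1.13% and 2.42% of all genes), and the combination 11, with 3 higher and 8 lower (1.79% and 4.63%). The lean towards lower calls depended on the scale. After median-of-ratios scaling 4 were called higher and 2 lower with butyrate, beside 464 and 282 of all 24674 genes. With the combination 5 were called higher and 3 lower, beside 773 and 379 of all genes. Limma voom called 6 higher and 4 lower in each, beside 1688 higher and 911 lower of all genes with butyrate and 2126 and 1343 with the combination. Without a limit on the coefficient, 15 rose and 25 fell with UK5099 (8.24% and 24.7% of all genes), 7 rose and 48 fell with butyrate (9.70% and 35.9%), and 9 rose and 48 fell with the combination (10.1% and 40.8%). After median-of-ratios scaling these became 24 and 15, 20 and 25, and 20 and 24, for which the shares of all genes were not computed. The shares given here on the deposited scale also stand beside the counts of each list below. For the counts of each list after median-of-ratios scaling there are no such shares, so they only describe the lists. The median coefficients over the 66 genes were -0.05, -0.32 and -0.43, beside the medians of -0.12, -0.30 and -0.41 over the better expressed genes given above.

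Of the 5 other family members, Erbb4, the remaining receptor, had 1 to 8 recovered fragments per sample, Egf 6 to 24 and Nrg3 0 to 3, and none of these nor Nrg4 passed the test. Nrg2, a second neuregulin, was the one that passed, with group means of 0.0647 TPM in vehicle, 0.265 in UK5099, 0.262 in butyrate and 0.258 in the combination. Every treated sample lay above every vehicle sample. Its coefficients were 0.25, 0.24 and 0.24, and on recovered fragments, 82.3 on average with vehicle, they were 2.19, 2.33 and 2.46 and were called. Limma on log2(TPM + 1) called 0 of the 5 in each comparison against vehicle, with 1, 1 and 2 at an unadjusted p under 0.05 (47.3%, 56.3% and 60.6% of all genes).

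Of the 10 genes of ligand release, 1 rose and 6 fell with UK5099, and 9 fell with butyrate and with the combination, 3 of them called. After median-of-ratios scaling 1 rose and 5 fell (UK5099), 2 rose and 6 fell (butyrate) and 1 rose and 6 fell (combination). No share of all genes that rose or fell was computed on that scale. The one gene called there in each butyrate comparison was Adam12. Rhbdf1, which encodes the iRhom1 partner of ADAM17, was at 48.6, 40.9, 21.4 and 17.8 TPM in vehicle, UK5099, butyrate and the combination, with coefficients of -1.15 and -1.40 in the butyrate groups (-0.80 and -0.91 after median-of-ratios scaling, not called). The metalloprotease gene Adam8 rose with UK5099 and fell in the butyrate groups, at 146, 187, 62.6 and 67.8 TPM, and its butyrate and combination coefficients were -0.85 and -0.59, not called, after median-of-ratios scaling. Adam12, another metalloprotease gene, went from 1.28 TPM with vehicle and 0.746 TPM with UK5099 to 0.0148 TPM with butyrate and 0.00979 TPM with the combination, and its butyrate coefficient was -1.17, or -6.15 on recovered fragments. The principal sheddases of these ligands, Adam10 and Adam17, were not called, although both were lower in deposited TPM. Adam10 was at 20.9, 19.8, 13.4 and 11.5 TPM in vehicle, UK5099, butyrate and the combination, and Adam17 at 13.0, 11.8, 11.3 and 10.1 TPM. For each gene, all samples of both butyrate groups lay below all vehicle samples in deposited TPM. After median-of-ratios scaling this held for Adam10. For Adam17 it turned, with all samples of both butyrate groups above all vehicle samples.

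Of the 20 adaptors and cascade genes, 2 rose and 9 fell with UK5099, 19 fell with butyrate and 20 with the combination. After median-of-ratios scaling 8 rose and 3 fell with UK5099, 5 rose and 9 fell with butyrate and 4 rose and 9 fell with the combination. The shares of all genes on that scale were not computed. Akt1, the kinase downstream of PI3K, was at 64.0, 46.5, 31.2 and 25.6 TPM and was called with butyrate (-1.01) and with the combination (-1.29), but not after median-of-ratios scaling (-0.66 and -0.79) or by limma voom (-0.72 and -0.86). Ptpn11, which encodes the phosphatase SHP2, was at 16.7, 12.5, 8.39 and 7.33 TPM and was called with the combination (-1.09), but not after median-of-ratios scaling (-0.63) or by limma voom (-0.73).

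Among the 19 genes of feedback and receptor turnover, 4 rose and 5 fell with UK5099, 2 rose and 12 fell with butyrate, and 2 rose and 14 fell with the combination. After median-of-ratios scaling 7 rose in each comparison, and 2, 5 and 6 fell, with no share of all genes computed. A pair of ERK phosphatase genes moved in opposite directions. Dusp4 was at 26.1, 12.7, 7.47 and 6.54 TPM in vehicle, UK5099, butyrate and the combination (coefficients -0.99, -1.68 and -1.84), and Dusp5 at 3.59, 6.51, 6.30 and 9.66 TPM (0.71, 0.67 and 1.22).

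Of the 12 ERK-induced genes, 7 rose and 5 fell with UK5099, 4 rose and 8 fell with butyrate, and 6 rose and 5 fell with the combination. After median-of-ratios scaling the split was 7 and 5, 5 and 5, and 7 and 3, again without computed shares of all genes. Egr3, an immediate early transcription factor, was at 12.03, 44.4, 23.3 and 29.5 TPM, with coefficients of 1.80, 0.90 and 1.22 and an interaction of -1.48 (limma adjusted p = 4.12e-06). Fosl1, an AP-1 subunit, was at 13.0, 35.1, 9.60 and 15.5 TPM and was called with UK5099 (1.37). Its butyrate coefficient was -0.40, or -0.07 (adjusted p = 0.23) after median-of-ratios scaling. Ccnd1 (cyclin D1) went from 514 TPM with vehicle to 356, 242 and 193 TPM, and Plaur (the urokinase receptor) from 38.9 to 31.4, 15.2 and 11.6 TPM. After median-of-ratios scaling the butyrate and combination coefficients were -0.73 and -0.91 for Ccnd1, not called, and -0.95 and -1.18 for Plaur, of which the second was called. The other two called genes, Fos and Myc, lay outside the limit of 4 per list and are named after their values were seen. Fos was called higher with butyrate (178 to 362 TPM), and Myc with butyrate and with the combination (88.3 to 202 and 210 TPM).

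**Figure D4:**
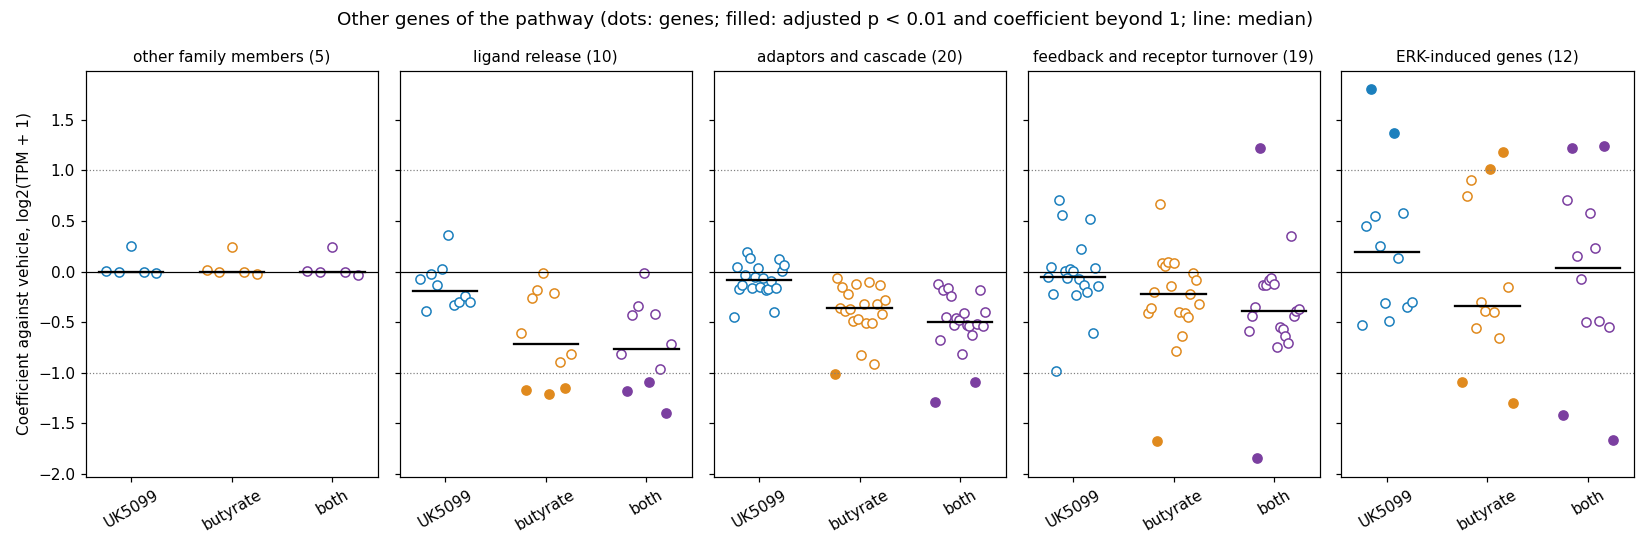
Coefficients against vehicle of the 66 pathway genes on log2(TPM + 1), with a dot per gene, a panel per list, filled dots for called genes and a line at each list's median. Over all 66 genes the medians were -0.05 (UK5099), -0.32 (butyrate) and -0.43 (combination), and Egr3 reached 1.80 with UK5099.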

How the data were processed

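RNA of 12 samples was sequenced as paired ends after rRNA depletion, per the labels. The deposited values are TPM, which the authors made from their alignments and which sum to 1000000 per sample. The study's methods name STAR, RSEM and Ensembl GRCm38, whereas the submitters' processing notes name STAR 2.7.9a, Partek and GRCm39. Of 23888 nuclear genes only 2.08% had GRCm38 positions, and the listed length equalled the span of the gene in 100% of genes, so introns enter the deposited TPM. Coordinates come from the table, with ends moved by 1 base because 25 of 25 mitochondrial genes had a stop 1 past the end.

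Groups followed the treatment labels, and 0 sample columns were left unmapped. TPM was fitted as log2(TPM + 1) with limma 3.58.1 in R 4.3.3 (UK5099, butyrate and their interaction, all 12 samples, all genes, no filter) with Benjamini-Hochberg adjustment over all genes. Adjusted p-values in the text come from limma. Multiplying TPM by length gave 33251810 to 43498827 fragments per sample, of which 75.4% to 76.7% of the protein-coding values under 1000 were whole within 0.02. Intervals of counts were not computed, and precision rests on 3 samples a group. Exonic lengths from GENCODE were found for 96.9% of genes, which held 97.2% of the TPM. Alternatives were a pseudocount of 0.1, a minimum of 1 TPM, median-of-ratios scaling, quantile normalisation, exonic length, limma voom on recovered fragments, no limit on the coefficient, a replicate block and leaving out each sample. The fits were tested on simulated data. The genes and lists were chosen with earlier results of these data known. Named pathway genes were those called against vehicle, up to 4 per list by size of coefficient, and the 3 genes most like Ereg and Epgn by Pearson's r. The comparison of butyrate with UK5099 was added after the data were seen.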

Additional observations from a re-analysis of the deposited data

Results flagged for a closer look

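For 6 of the 10 genes the effect of UK5099 with butyrate present differed from its effect without butyrate, by limma's interaction test on log2(TPM + 1) at an adjusted p under 0.01. The difference was -0.69 for Ereg, which UK5099 raised by 1.03 alone and by 0.35 on top of butyrate. It was -0.60 for Epgn, raised by 1.56 alone and by 0.96 on top of butyrate, although in TPM the step was larger on top of butyrate. For Areg the difference was -0.58, with UK5099 at 0.44 alone and at -0.14 (adjusted p = 0.0116) on top of butyrate. For Erbb3 it was -0.37 and for Btc -0.29, and UK5099 added to butyrate was at -0.27 (adjusted p = 0.00034) and -0.33 (adjusted p = 2.94e-05), against 0.11 (adjusted p = 0.0424) and -0.04 (adjusted p = 0.405) for UK5099 alone. After median-of-ratios scaling the Erbb3 value on top of butyrate did not pass (-0.12, adjusted p = 0.0263), and the one for UK5099 alone did (0.26, adjusted p = 0.000285). For Nrg1 it was -0.17, which did not pass after median-of-ratios scaling (-0.08, adjusted p = 0.0536) or quantile normalisation (-0.12, adjusted p = 0.0318). The groups of 3 samples were too small for the search for single samples far from the others.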

How the results depend on the processing

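Of the coefficients of the 10 genes, each recomputed under every setting, 1260 kept their direction and their status as called or not, 35 came to be called and 28 turned sign. Of the 1260, 839 came from leaving out 1 sample and 70 from the replicate block. Crossing the limit on the adjusted p without a change of call was not counted as a change. The cause of these changes was not tested. Counts of the 10 genes called, 2, 1 and 2 in the UK5099, butyrate and combination comparisons with vehicle, became 3 for butyrate under median-of-ratios scaling, quantile normalisation and limma voom on recovered fragments and 2 under a pseudocount of 0.1 and exonic length, and became 4 for the combination under a pseudocount of 0.1, exonic length and voom and 3 under median-of-ratios scaling and quantile normalisation. For UK5099 the count became 3 under the pseudocount of 0.1, exonic length and voom. Over all 24674 genes, calls against vehicle went from 454, 874 and 1585 to 1034, 1955 and 3292 with the pseudocount of 0.1. They were 411, 746 and 1152 with median-of-ratios scaling, 403, 730 and 1113 with quantile normalisation, and 1431, 2599 and 3469 with voom. With exonic length they were 688, 1212 and 1990 of 23913 genes. With UK5099 added to butyrate, 0 became 2 with a pseudocount of 0.1 and with voom, and 1 with median-of-ratios scaling, quantile normalisation and exonic length. Calls over all genes there went from 224 to 546, 815, 253, 249 and 363, in the same order of settings. With butyrate added to UK5099, 0 became 2 with voom and 1 with the pseudocount of 0.1, median-of-ratios scaling, quantile normalisation and exonic length. Calls over all genes there went from 487 to 1974, 1297, 444, 420 and 701, in the same order of settings. Butyrate against UK5099 went from 0 to 1 with the pseudocount of 0.1, exonic length and voom, while calls over all genes went from 459 to 1179, 673 and 1778. With no limit on the coefficient the counts were 7, 9, 8, 9 (UK5099 added), 10 (butyrate added), 6 (interaction) and 8 (butyrate against UK5099). Of all 24674 genes, 8139, 11262, 12577, 6780, 10601, 3303 and 9257 passed in these comparisons, in the same order. The 66 pathway genes gave, for UK5099, 4 calls in place of 2 with a pseudocount of 0.1, 5 with voom and 40 with no limit, for butyrate 5 in place of 9 with quantile normalisation and 55 with no limit, and for the combination 7 in place of 11 with quantile normalisation and 57 with no limit. Genes of the 10 at 10 TPM or more with vehicle numbered 4 as deposited and 9 with exonic length.

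The signs that turned did so as follows. Under median-of-ratios scaling and quantile normalisation, Egfr with the combination was at 0.0296 and 0.001, Erbb2 with UK5099 at 0.0859 and 0.0526, Btc with UK5099 at 0.064 and 0.0453, Hbegf with the combination at 0.4547 and 0.3676, Hbegf with butyrate added at 0.0652 and 0.0269, Tgfa with butyrate added at 0.027 and 0.0195, Ereg with butyrate against UK5099 at 0.1179 and 0.1513, and Epgn in that comparison at 0.0441 and 0.0759. Median-of-ratios scaling alone also turned Areg with UK5099 added (0.0109) and Nrg1 with butyrate added (0.002). With voom, Erbb2 with UK5099 was at 0.0894, Btc with UK5099 at 0.0977, Areg with UK5099 added at 0.0109, Hbegf at 0.4201 with the combination and 0.0243 with butyrate added, and butyrate against UK5099 at 0.0851 for Ereg and 0.0072 for Epgn. Exonic length gave 0.0776 for Hbegf with the combination and 0.0174 for Ereg with butyrate against UK5099.

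Leaving out each sample in turn left the counts of the 10 genes at 2, 1, 2 and 0 in the remaining comparisons, and the pathway counts at 2 to 3 (UK5099), 9 (butyrate) and 11 (combination). The interaction of Egfr ranged from -0.0446 to 0.0005, turning sign without UK5099 replicate 3. Same-numbered samples did not deviate together (r of -0.107 to 0.029 over 18 pairs), so the numbers were not taken to pair samples, and with the replicate number as a block the counts of the 10 genes called remained 2, 1, 2 and 0 in the others, with the same calls for all 70 coefficients. A minimum of 1 TPM left Nrg1 untested.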
